A study of Macaca mulatta with 30 samples.

Results

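Gene expression was compared between ventrolateral prefrontal cortex (VFC) and primary motor cortex (M1C) of rhesus macaques, using the 20 arrays whose titles begin with either region name, out of 30 arrays in the series. Each of 5 animals gave both regions from both hemispheres. Left and right arrays of a region were averaged within an animal and M1C was subtracted from VFC, which gave 5 paired differences for each probe set. The prefrontal tissue came from the lower limb of the arcuate sulcus, described by the submitters as the macaque counterpart of part of Broca's area, and the motor tissue from the forelimb field. The other 10 arrays hold superior temporal cortex (STC), which serves as a further region below. The brains were frozen after death, within 6 h wherever that interval was known, and the labels state no treatment, genotype or cause of death for any of the animals. Animals 1, 2 and 3 were labelled female, with ages of 7.3, 5.5 and 8.6, and animals 4 and 5 male, with ages of 4.2 and 2; the labels give no unit for age. Sex and age go with the animal and could not be told apart from it, and both regions of an animal share them.

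Primary motor cortex sends the longest axons of the cortex to the spinal cord, from large pyramidal neurons of the deep layers with thick, heavily myelinated axons, and its layer 4 is thin. The ventrolateral prefrontal cortex is an association area, more lightly myelinated, with denser connections between cortical areas through its upper layers. Oligodendrocytes make the myelin of both, and fast-firing neurons use a known set of sodium and potassium channels, calcium buffers and vesicle proteins. Each sample is a piece of tissue with many cell types, so fewer cells of a type and less RNA per cell cannot be told apart in any result below.

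Values are log2 intensities, so a difference of 1 is a 2-fold change. Array medians lay between 6.57 and 6.64, and arrays have no read depth: the 5 animals limit the precision. Of 40489 probe sets, 24292 had a mean over the 30 arrays above 6.04, the 40th percentile, and were tested; 11443 gene symbols were among them, and 51.7% of the tested probe sets had no single symbol. Names below belong to the brightest probe set of a gene. Of the 20 arrays compared, 1 went against the sex of its label and 1 carried the signal of both sexes. On a probe set picked from these data as the one highest in animals 1 and 2 over animal 5, the arrays of those females read 11.19 to 11.69 and those of male 5 read 4.60 to 5.70. The array labelled M1C left of animal 3, a female, read 5.26, and that labelled VFC left of animal 4, a male, read 10.58. On the opposite probe set, highest in animal 5, they read 8.85 and 8.68, against 8.35 to 8.76 in animal 5 and at most 5.41 in animals 1 and 2. Each array was also correlated, over all tested probe sets, with the VFC minus M1C difference of the other animals. The array labelled M1C left of animal 3 gave 0.27. The other 9 M1C arrays lay between -0.50 and -0.29 and the 10 VFC arrays between 0.10 and 0.51. STC arrays ranged from -0.33 (right, animal 4) to 0.35 (left, animal 1), so 0.27 does not tell VFC from STC. These are correlations across probe sets, which are not independent, and carry no test. Results are therefore given with all arrays and without these 2, in which case animals 3 and 4 rest on 1 hemisphere for 1 region.

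VFC and M1C differed in genes of myelin, of fast-firing neurons, of ion channels and of synapses. With all 20 arrays, limma called 1587 of 24292 probe sets at an adjusted p under 0.05 (6.53%), 787 higher (3.24%) and 800 lower (3.29%) in VFC. Without the 2 arrays it called 2386 (9.82%), 1192 higher (4.91%) and 1194 lower (4.92%), and 1505 probe sets were called both times. The called differences were modest: their median size was 0.33, 188 reached 1.5-fold and 30 reached 2-fold (63 without the 2 arrays). Of the called probe sets, 1566 had the same direction in 5 of 5 animals, which a call on 5 differences largely entails. The region means did not overlap in 695 of the called probe sets. Over all tested probe sets they did not overlap in 1144 (4.71%). The called probe sets carried 435 gene symbols higher and 482 lower in VFC, and 661 had no single symbol. On the brightest probe sets of 11443 genes, from which the gene lists below are counted, 7.88% were called, 3.72% higher and 4.16% lower. The lists were chosen with earlier results of these data known, and no list was tested as a set. The shares beside their counts are therefore a reference only. List counts without the 2 arrays stand against the larger shares of that setting, 4.91% higher and 4.92% lower over all tested probe sets.

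The count rests on the tool's estimate of spread and on all 5 animals. With a spread that depends on intensity, limma called 0 probe sets at an adjusted p under 0.05 (smallest 0.0541), while 5281 had an unadjusted p under 0.05 as against 5222 in the fit reported here. Leaving out animals 1 to 5 in turn left 261, 596, 1477, 144 and 573 calls. Directions were also compared. Of the probe sets called in the other 4 animals, 98.1% had the same sign in animal 1, 97.3% in animal 2, 85.1% in animal 3, 99.3% in animal 4 and 91.4% in animal 5, against 57.2% to 66.2% of all tested probe sets. With 5 pairs, an exact sign-flip test of a single gene cannot go below p = 0.0625, so calls come from the fit across all probe sets.

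**Figure D1:**
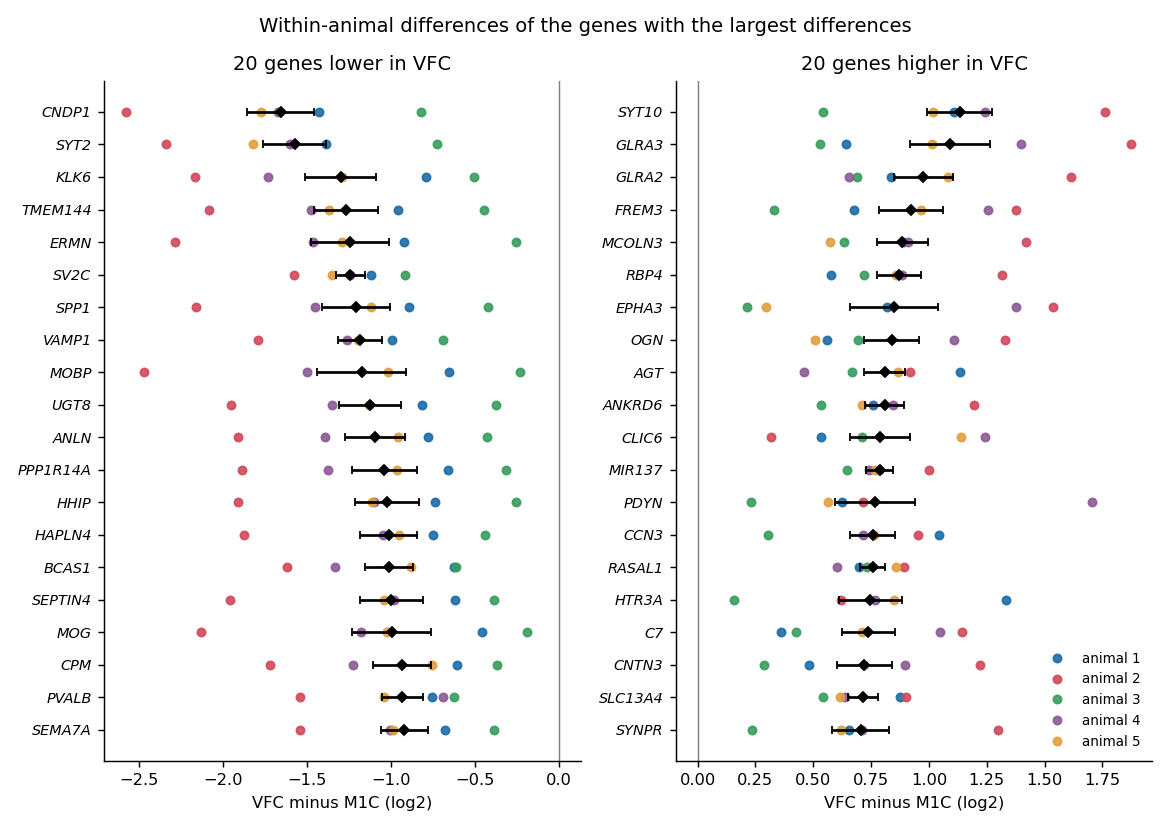
Within-animal differences (x axis, VFC minus M1C, log2) of the 20 genes with the largest called decrease (left) and increase (right) in VFC; coloured points are the 5 animals, black diamonds the mean and bars the standard error of limma. No animal crosses 0; in each of the 20 lower genes animal 2 lies furthest from 0 and animal 3, which holds 1 of the 2 arrays in doubt, nearest.

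Most genes of oligodendrocytes and their myelin were lower in VFC than in M1C. Of 29 tested members, 22 were called lower and 0 higher, against 4.16% of all genes called lower, and the list median was -0.82 against 0.0028 over all tested probe sets. CNDP1, a carnosine-cleaving peptidase made by oligodendrocytes in the primate brain, had the largest difference of all tested probe sets. It read 8.27, 7.09, 8.21, 7.91 and 6.70 in VFC of animals 1 to 5 and 9.70, 9.66, 9.04, 9.58 and 8.48 in M1C. Every VFC mean lay below every M1C mean, and animal 5 had the lowest value of each region. The difference was -1.66 ± 0.20 (mean ± limma standard error, n = 5), 3.15-fold, with a limma adjusted p of 0.00866; without the 2 arrays it was -1.89.

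Structural proteins of the sheath were lower as well. MOBP, a basic protein of compact myelin, differed by -1.17, MOG, a glycoprotein of its outer surface, by -0.996, MAG, which faces the axon, by -0.90, CNP, an enzyme of non-compact myelin, by -0.80 and the membrane proteolipid PLLP by -0.82 (limma adjusted p = 0.0316 to 0.0428). MBP, the major basic protein, read 12.06 ± 0.54 (SD, n = 5) in VFC and 12.74 ± 0.09 in M1C, and its within-animal differences were -0.25, -1.56, -0.14, -0.82 and -0.63. The regions did not overlap, the VFC spread was the wider, and its difference of -0.68 missed the threshold (limma adjusted p = 0.0606), and passed without the 2 arrays (-0.80, limma adjusted p = 0.0244). CLDN11, the tight-junction protein of myelin, read -0.78 (limma adjusted p = 0.0628, and 0.0234 without the 2 arrays).

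Regulators of the lineage were among the lower genes. MYRF, the factor that turns on myelin genes, differed by -0.67, ST18 by -0.90, NKX6-2 by -0.62 and OLIG1, present from the precursor stage, by -0.31. SOX10 read -0.31 and was not called (limma adjusted p = 0.0844). Other members called lower were KLK6, a secreted protease (-1.30 ± 0.21), ERMN, a cytoskeletal protein of late oligodendrocytes (-1.24 ± 0.23), ANLN (-1.09), BCAS1 (-1.01), PPP1R14A (-1.04), OPALIN (-0.88), ENPP2 (-0.72), HAPLN2, a link protein at nodes of Ranvier (-0.75), and CNTN2, an adhesion protein beside the nodes (-0.55). Of 8 tested precursor markers limma called 0 with all arrays (1 at an unadjusted p under 0.05, median -0.035). That gene, PCDH15, read 0.26 and was called higher without the 2 arrays (0.29).

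Of 16 tested genes for the lipids of myelin, 6 were called lower and 0 higher, against 4.16% of all genes called lower, with a median of -0.31. The list is not separate from the oligodendrocyte one: UGT8, FA2H and ASPA are in both, so 3 of the 6 are also among the 22 above. UGT8, which makes galactosylceramide, differed by -1.12 ± 0.18, FA2H, which hydroxylates its fatty acids, by -0.88, and GAL3ST1, which turns it into sulfatide, by -0.35. ASPA, which frees acetate for lipid synthesis, differed by -0.82, the elongase ELOVL1 by -0.55 and the desaturase SCD by -0.44. CERS2, a ceramide synthase, read -0.35 (limma adjusted p = 0.0536) and was among the 10 members called without the 2 arrays. For cholesterol synthesis, which most cells share, limma called 0 of 16 genes with all arrays or without the 2, and 0 had an unadjusted p under 0.05 (median 0.0049); HMGCS1 read 0.12.

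The size of the myelin difference varied between animals. The list median was -0.44 in animal 1, -1.62 in animal 2, -0.19 in animal 3, -1.02 in animal 4 and -0.86 in animal 5. Without the 2 arrays it became -0.63 in animal 3 and -1.42 in animal 4. By array, the mean level of the list lay between 7.70 and 8.74 in VFC and between 8.45 and 9.35 in M1C, and the array labelled M1C left of animal 3 gave the lowest of the M1C values. The count of members called lower was 5, 10, 26, 1 and 8 when animals 1 to 5 were left out in turn. Samples were cut from cortex with no stated separation of grey and white matter, so the share of white matter in each piece was not tested and cannot be told apart from the region.

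**Figure D2:**
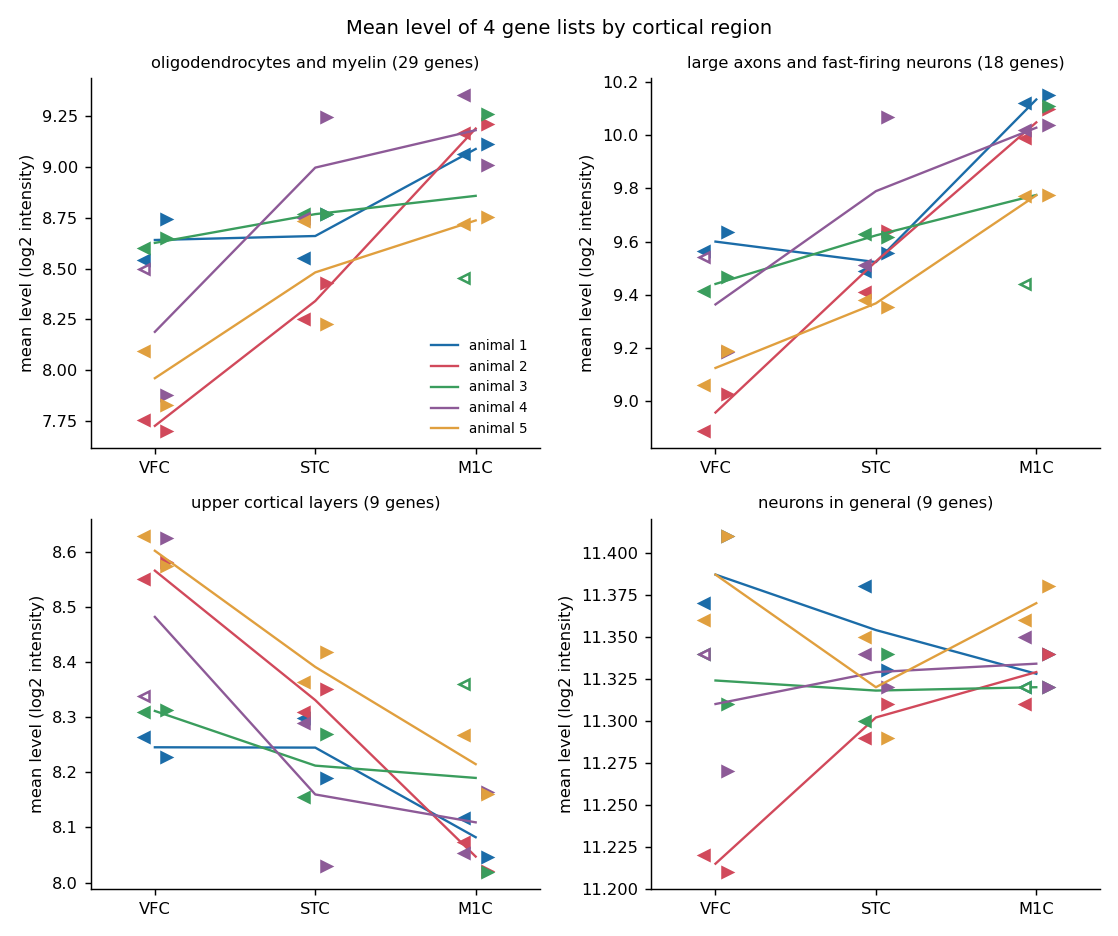
Mean level (y axis, log2 intensity) of the tested genes of 4 lists in VFC, STC and M1C; triangles are single arrays (pointing left or right by hemisphere, open for the 2 arrays in doubt), lines join the mean of both hemispheres of each animal. Between VFC and M1C the myelin and fast-firing lists rise and the upper-layer list falls in each animal, while all arrays of the general neuron list lie within 11.21 to 11.41.

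Genes that serve thick axons and rapid firing were lower in VFC too. Of 18 tested members 16 were called lower and 1 higher, against 4.16% of all genes called lower, with a median of -0.59; without the 2 arrays the counts were the same and the median -0.69, and leaving out animals 1 to 5 in turn left 9, 12, 15, 8 and 12 called lower. SYT2, the calcium sensor of fast transmitter release, read 8.71, 7.73, 8.70, 8.38 and 7.78 in VFC of animals 1 to 5 and 10.10, 10.07, 9.43, 9.98 and 9.60 in M1C. The regions did not overlap, and the difference of -1.57 ± 0.19 was 2.98-fold (limma adjusted p = 0.00866). VAMP1, the vesicle fusion protein that accompanies it in fast neurons, differed by -1.19 ± 0.13, and CPLX1, a complexin that clamps and times fusion, by -0.46.

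SPP1, a secreted phosphoprotein that marks large projection neurons of the motor cortex, read 9.31 ± 0.63 in VFC and 10.52 ± 0.41 in M1C, a difference of -1.21. The light neurofilament NEFL differed by -0.43 and the related filament INA by -0.28; both were among the brightest probe sets, at 12.17 and 12.39 in M1C. The membrane anchor ANK1 differed by -0.41 and STAC2, a partner of calcium channels, by -0.37. The heavy neurofilament NEFH was not analysed here. VAT1L, which was placed in the list for its expression in large deep-layer neurons, was called in the other direction (0.26 ± 0.049), and SCN8A was not called (-0.077).

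PVALB, the calcium buffer of fast-spiking interneurons, read 9.99, 9.28, 9.59, 10.08 and 9.46 in VFC and 10.75, 10.83, 10.22, 10.77 and 10.50 in M1C. All 5 VFC means were below all 5 M1C means, and the difference was -0.93 ± 0.12 (limma adjusted p = 0.00906). Of 19 interneuron genes tested 10.5% were called, against 7.88% of all genes. PVALB alone was called lower, and it is also in the fast-firing list. CNR1, the cannabinoid receptor of another interneuron class, was called higher (0.27 ± 0.049), GAD1, the enzyme that makes GABA, read -0.032 and SST 0.36 (limma adjusted p = 0.0777, and 0.00491 without the 2 arrays, where its difference was 0.48). Of 9 perineuronal net genes 33.3% were called, against 7.88% of all genes. HAPLN4 (-1.01), also in the fast-firing list, and HAPLN2, also in the oligodendrocyte list, were lower. The matrix protein TNC was higher (0.61 ± 0.084), and TNR read 0.21 (limma adjusted p = 0.0512).

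The vesicle fusion list split in both directions: of 30 tested members 4 were higher and 4 lower in VFC, against 3.72% and 4.16% of all genes. SYT10, a synaptotagmin that acts as calcium sensor for peptide release in mouse neurons, was the most increased named gene. It read 6.83, 7.25, 6.72, 6.82 and 7.07 in VFC of animals 1 to 5 and 5.72, 5.49, 6.18, 5.57 and 6.05 in M1C. The regions did not overlap, and 3 of 5 M1C means lay below 6.04, the filter level. The difference was 1.13 ± 0.14, 2.19-fold (limma adjusted p = 0.00866). SYT17 differed by 0.70 ± 0.071, the plasma membrane fusion protein STX1A by 0.47 and the calcium-binding DOC2A by 0.41. In the other direction SV2C, a vesicle membrane protein, differed by -1.24 ± 0.087 with values from -1.58 to -0.91 in the 5 animals. It joined SYT2, VAMP1 and CPLX1, which are also in the fast-firing list above. SYNPR, a vesicle protein outside the list, was higher (0.70), while SYP, common to nearly all synapses, read 0.10.

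**Figure D3:**
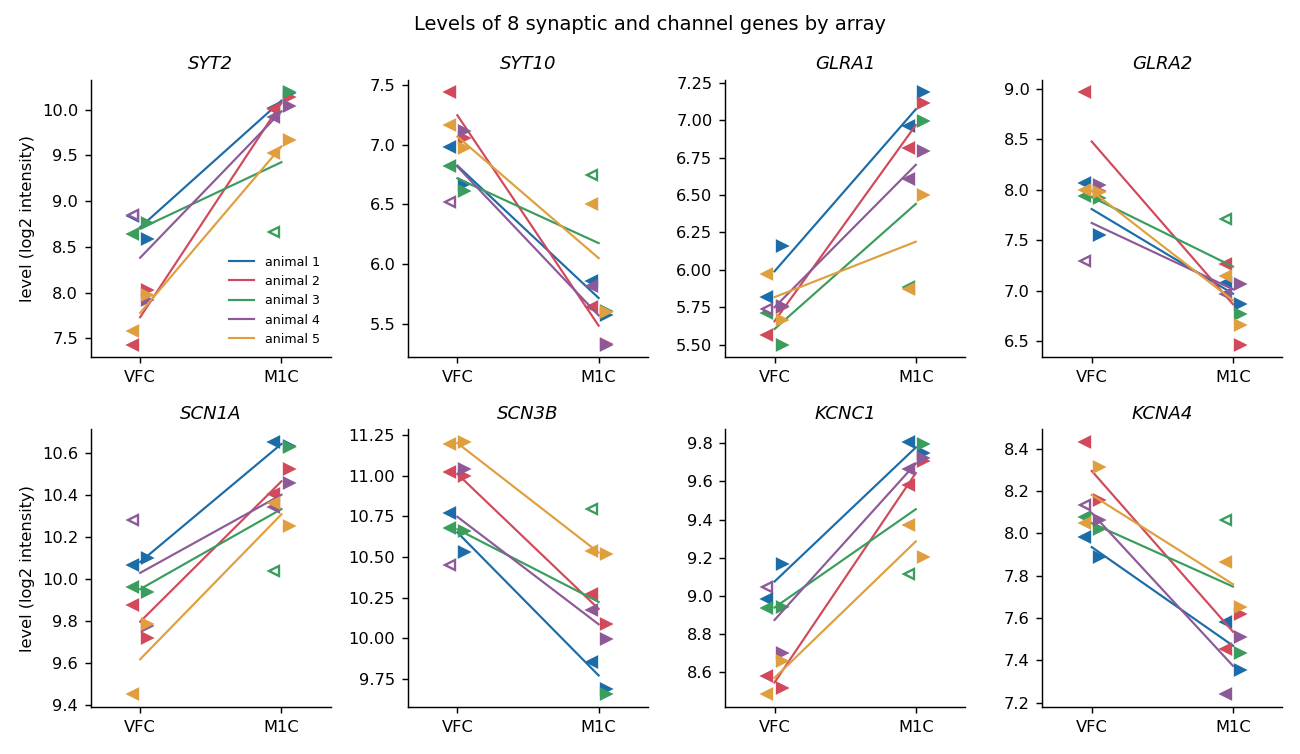
Level (y axis, log2 intensity) of 8 genes on the single VFC and M1C arrays; triangles point left or right by hemisphere, open triangles mark the 2 arrays in doubt, and lines join the mean of both hemispheres of each animal. SYT2, GLRA1, SCN1A and KCNC1 rise from VFC to M1C in 5 of 5 animals and SYT10, GLRA2, SCN3B and KCNA4 fall in 5 of 5.

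Potassium channel genes also split by member. Of 48 tested, 10 were lower and 6 higher in VFC, 33.3% called against 7.88% of all genes, with a median of 0.020. The list is not separate from the fast-firing one: the lower genes KCNC1, KCNA1, KCNA2, KCNAB3 and KCNS1 are in both. The Kv3 channel KCNC1, which allows fast repolarisation, read 9.07, 8.55, 8.94, 8.87 and 8.57 in VFC and 9.78, 9.64, 9.45, 9.69 and 9.29 in M1C, with no overlap and a difference of -0.77 ± 0.078. The axonal Kv1 channels KCNA1 (-0.85 ± 0.093) and KCNA2 (-0.44 ± 0.064) and their subunits KCNAB3 (-0.65) and KCNAB1 (-0.25) were lower, as was the modifier KCNS1 (-0.85). Its relative KCNS3 read -0.27 (limma adjusted p = 0.0565). The inward rectifiers KCNJ2 (-0.60) and KCNJ10, a channel of glia (-0.54), the leak channel KCNK10 (-0.33) and KCNH8 (-0.66) completed the lower set.

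Other Kv1 members went the opposite way. KCNA4, an A-type channel that inactivates quickly, was higher (0.53 ± 0.074), and so was KCNA3 (0.29 ± 0.049), so that within a single channel family 2 members were called lower and 2 higher. The silent modifiers KCNG3 (0.54) and KCNG1 (0.57), the M-current subunit KCNQ3 (0.26) and the sodium-activated KCNT2 (0.37) were also higher. The Kv3 relative KCNC4 read 0.25 and was not called (limma adjusted p = 0.11). Each of these 6 higher channels pointed the same way in 5 of 5 animals, with differences from 0.023 (KCNT2 in animal 3) to 0.85 (KCNG1 in animal 5).

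Among 27 sodium, calcium and HCN channel genes, 8 were higher and 2 lower in VFC, against 3.72% and 4.16% of all genes. Of the lower ones SCN1A is also in the fast-firing list. The sodium channel alpha subunits differed in direction: SCN1A, prominent in fast-spiking interneurons, was lower (-0.53 ± 0.063), while SCN2A (0.26 ± 0.06) and SCN3A (0.52 ± 0.092), the latter best known from the developing brain, were higher. SCN3B, an auxiliary subunit, read 10.65, 11.01, 10.67, 10.75 and 11.20 in VFC of animals 1 to 5 and 9.77, 10.18, 10.22, 10.09 and 10.53 in M1C. Its regions did not overlap, and the difference of 0.70 ± 0.067 was the largest of the list. The calcium channel subunits CACNA2D1 (0.43, with both of its probe sets called higher), CACNB3 (0.34), CACNG3 (0.33), CACNA1E (0.29) and CACNA1G (0.35) were higher. HCN2, a pacemaker channel, was lower (-0.25), and the T-type channel CACNA1H read 0.23 without being called.

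Glycine receptor subunits had differences in opposite directions. GLRA2 read 7.81, 8.48, 7.93, 7.67 and 7.99 in VFC and 6.97, 6.86, 7.24, 7.01 and 6.90 in M1C, a difference of 0.98 ± 0.13. GLRA3 differed by 1.09 ± 0.17 (8.50 ± 0.40 in VFC, 7.41 ± 0.34 in M1C, SD, n = 5). GLRA1, the adult subunit of spinal cord and brainstem, ran the other way: it read 5.99, 5.66, 5.60, 5.75 and 5.82 in VFC and 7.07, 6.97, 6.44, 6.70 and 6.19 in M1C. For each of the 3 subunits the regions did not overlap. The mean GLRA1 difference was -0.91, but its VFC means all lay below the filter level of 6.04 and it passed the filter only through M1C, where it is high, so it is given with no test. Of GABA receptor subunits, GABRA5, found in extrasynaptic receptors, was higher (0.45 ± 0.074). GABRQ, which read 6.36 in VFC, 6.02 in M1C and 5.99 in STC, passed the filter only through VFC and is likewise given with no test. Of the 13 receptor genes of this list that were tested, 11 would pass the filter without the region where they are higher, and of these 3 were higher and 0 lower, against 3.72% and 4.16% of all genes.

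Receptors for glutamate and for the modulatory transmitters were called in 1 direction with all arrays. Of 12 glutamate receptor genes 3 were higher and 0 lower, against 3.72% of all genes called higher: the AMPA subunit GRIA1 (0.33 ± 0.056), the kainate subunit GRIK1 (0.48 ± 0.093) and GRM2, a presynaptic autoreceptor (0.42 ± 0.085). GRIA4 read 0.25 and was not called. Of 29 monoamine and acetylcholine receptor genes 5 were higher and 0 lower. Without the 2 arrays 9 were higher and 1 lower, against 4.91% and 4.92% of all tested probe sets. HTR3A, the serotonin-gated channel found on a class of interneurons, differed most (0.75 ± 0.14, from 0.16 in animal 3 to 1.33 in animal 1). The nicotinic subunit CHRNB2 (0.40 ± 0.052), the adrenergic receptor ADRA2C (0.44 ± 0.079), HTR1E (0.29) and the histamine receptor HRH1 (0.30) followed. ADRA2A, the noradrenaline receptor known for its part in prefrontal working memory, read 0.33 and CHRM3 0.28; neither passed (limma adjusted p = 0.0651 and 0.0567), and both passed without the 2 arrays (0.0426 and 0.0173).

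Scaffold proteins of the postsynaptic density had 5 of 17 members called higher and 0 lower, against 3.72% of all genes called higher. Without the 2 arrays 8 were higher, against 4.91% of all tested probe sets. SHANK1 differed by 0.25 ± 0.049, SHANK2 by 0.27 ± 0.051, DLGAP3 by 0.25 ± 0.045, BEGAIN by 0.31 ± 0.047 and LRRC7, which binds the scaffold PSD-95, by 0.42 ± 0.084. These differences were small, between 1.19-fold and 1.34-fold. DLG4, which encodes PSD-95 itself, read 0.18 with M1C at 11.13 ± 0.07, and HOMER2 read 0.19; both missed the threshold (limma adjusted p = 0.0682 and 0.0677). Among 10 excitatory neuron genes 20% were called, against 7.88% of all genes. SLC30A3, the zinc transporter of synaptic vesicles (0.31), and the transcription factor NEUROD6 (0.40) were higher, while CAMK2A read 0.14 (limma adjusted p = 0.108).

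General neuron markers gave no called difference: limma called 0 of 9 with all arrays or without the 2, 0 had an unadjusted p under 0.05, the median was -0.049, and the list mean lay between 11.21 and 11.41 on the VFC arrays and between 11.31 and 11.38 on the M1C arrays. Upper-layer genes had 4 of 9 members called higher, against 3.72% of all genes, 0 lower and a median of 0.28. They were GLRA3, the adhesion protein MDGA1 (0.34 ± 0.062), the endoplasmic reticulum protein WFS1 (0.32 ± 0.07) and NECTIN3 (0.28 ± 0.065), which missed the threshold without the 2 arrays (limma adjusted p = 0.0614). CUX2, the classical upper-layer transcription factor, read 0.24 and the peptide gene CARTPT 0.44, both uncalled with all arrays. Without the 2 arrays CUX2 was called (0.31); CARTPT read 0.50, with no test given since its M1C mean of 5.74 lay below the filter level and it would not pass without VFC. FREM3, a matrix protein of upper-layer neurons in primates that was outside the list, was higher by 0.92 ± 0.14.

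For layer 4, limma called 0 of 5 genes with all arrays (1 at an unadjusted p under 0.05) and 1 higher without the 2 arrays, UNC5D (0.32 and 0.35). RORB, its defining transcription factor, read 9.51, 9.48, 9.20, 9.82 and 9.65 in VFC and 9.38, 9.34, 9.53, 9.21 and 9.70 in M1C; the regions overlapped, and its difference of 0.095 was negative in animals 3 and 5. Of 20 deep-layer genes 2 were called higher, against 3.72% of all genes, TSHZ2 (0.61 ± 0.078) and CRYM, a thyroid hormone binding protein (0.39). Without the 2 arrays 6 were called higher, against 4.91% of all tested probe sets. The defining factors of subcortical projection neurons did not pass the test: FEZF2 read -0.09 and BCL11B -0.078 (limma adjusted p = 0.652 and 0.65), with 3 of 5 animals in the direction of each mean.

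Markers of other cells were checked beside these results. Of 15 astrocyte genes 26.7% were called, against 7.88% of all genes, at a median of -0.081. Higher were 2, AGT, the precursor of angiotensin (0.81 ± 0.09), and ID4 (0.32 ± 0.058). Lower were 2, GLUL, glutamine synthetase (-0.22 ± 0.051), and FGFR3 (-0.25 ± 0.059). Of 9 microglia genes limma called 0 with all arrays (2 at an unadjusted p under 0.05) and 1 higher without the 2, and P2RY12 read 0.20. Of 13 genes of endothelium and pericytes FLT1 alone was called (7.69%), near the 7.88% of all genes. It was lower (-0.20 ± 0.05, limma adjusted p = 0.0485, and 0.0518 without the 2 arrays), while the endothelial junction gene CLDN5 read 0.056. Of 6 striatal genes limma called 0 with all arrays (0 at an unadjusted p under 0.05) and 1 higher without the 2, and DRD1 read -0.026. None of the 4 blood genes on the array lay above the filter.

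Genes typical of the meninges were higher in VFC than in M1C. Of 15 tested members 6 were called higher in VFC, against 3.72% of all genes, and 0 lower, at a median of 0.18, and all 15 differences were above 0. OGN, a small matrix proteoglycan, read 8.60, 9.28, 9.47, 9.09 and 8.94 in VFC and 8.04, 7.95, 8.78, 7.98 and 8.43 in M1C, a difference of 0.84 ± 0.12 with overlapping regions. SLC13A4, a sulfate transporter of meninges and choroid plexus, differed by 0.71 ± 0.066, DCN by 0.49, SLC6A20 by 0.36, MGP by 0.33 and SLC22A6 by 0.22. LUM read 0.47 (limma adjusted p = 0.0962). TTR, which defines choroid plexus, read 6.43 ± 0.17 in VFC and 6.38 ± 0.14 in M1C, near the filter level in both. The list mean lay between 7.09 and 7.96 on the VFC arrays and between 6.98 and 7.52 on the M1C arrays. Both VFC extremes came from animal 2, 7.09 on the left and 7.96 on the right. On the STC arrays the list mean lay between 7.07 and 8.035. The list median was 0.045 for VFC minus STC and 0.26 for STC minus M1C. CLIC6, an ion channel protein of choroid plexus (0.79), and the complement protein C7 (0.74) were also among the most increased genes. The part of these cells in the other results was not tested.

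**Figure D4:**
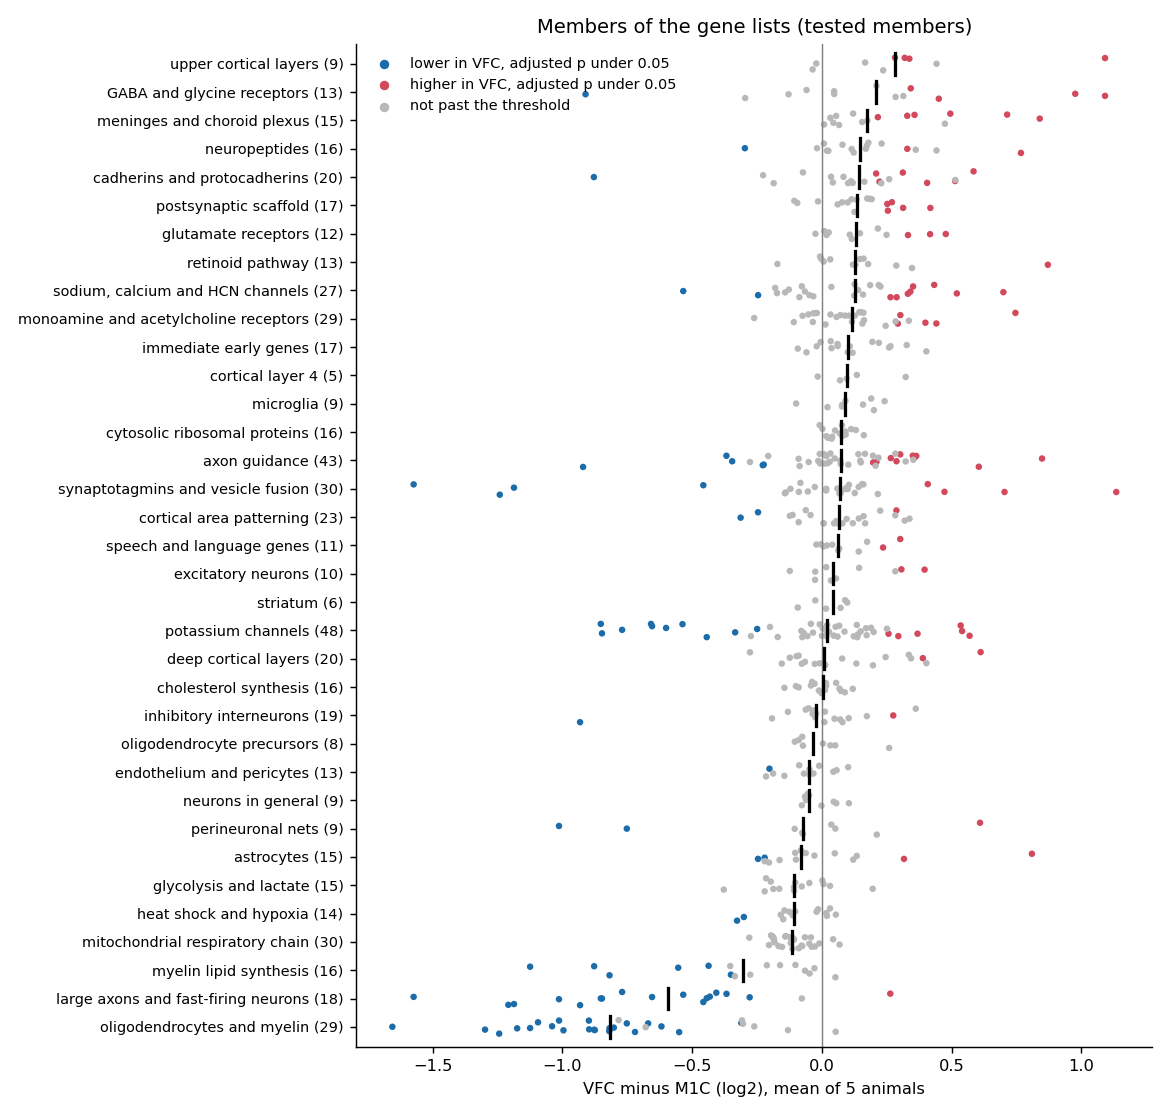
Difference (x axis, VFC minus M1C, log2, mean of 5 animals) of each tested member of 35 gene lists, ordered by list median (black bars), with the number of tested members in brackets; blue and red points passed the limma threshold, grey points did not. The myelin and fast-firing lists lie apart on the left, and most receptor, adhesion and upper-layer lists lie to the right of 0. GLRA1 and GABRQ, given with no test in the text, are among the coloured points.

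Axon guidance genes were called in both directions, 10 of 43 higher and 5 lower, against 3.72% and 4.16% of all genes. The ephrin receptor EPHA3 differed most among the higher (0.85 ± 0.19, from 0.21 in animal 3 to 1.53 in animal 2), and the ephrin ligand EFNB2 by 0.27. EPHA6 read 0.35 on its brightest probe set, which was not called. The semaphorin receptors PLXNC1 (0.60 ± 0.098), NRP2 (0.36), PLXND1 (0.36, in 4 of 5 animals) and PLXNA1 (0.21) were higher and PLXNB1 lower (-0.22). Their ligands split too. SEMA7A, the ligand of PLXNC1, was lower, at -0.92 ± 0.14, as were SEMA6A (-0.37) and SEMA6D (-0.23), while SEMA4A (0.35) and SEMA3A (0.29) were higher. Of the repellent pathways, the receptor ROBO1 (0.30) and the ligand SLIT3 (0.20) were higher and the netrin receptor UNC5B lower (-0.35).

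SEMA7A and its receptor PLXNC1 had opposite differences in each animal. SEMA7A read -0.68, -1.54, -0.39, -1.01 and -0.99 in animals 1 to 5, and PLXNC1 read 0.42, 0.94, 0.24, 0.82 and 0.61. Neither gene's regions overlapped. Cadherins and protocadherins, which sort neurons by adhesion, had 6 of 20 members higher and 1 lower, against the same shares of all genes. PCDH19 (0.58 ± 0.13), CDH8 (0.51 ± 0.094), PCDH8 (0.41), CDH10 (0.31), CDH13 (0.22) and PCDH10 (0.21) were higher and CDH19 was lower (-0.88 ± 0.12). PCDH18 read 0.51 (limma adjusted p = 0.0756). CTNNA3, a catenin outside the list, was lower, at -0.74 ± 0.14, and the neuronal adhesion protein CNTN3 was higher by 0.72 ± 0.12.

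Genes that pattern cortical areas in development, most of them transcription factors, were called in both directions. Of 23 tested 3 were called, a share above the 7.88% of all genes. The transcription factor NR2F2 was higher (0.29 ± 0.054). FGFR3, a receptor for fibroblast growth factors, and the transcription factor PBX3 (-0.31) were lower. Without the 2 arrays 4 were called higher and 2 lower, against 4.91% and 4.92% of all tested probe sets. NR2F1, which limits the extent of frontal and motor areas in mice, read 0.34 (limma adjusted p = 0.0765, and 0.00888 at 0.41 without the 2 arrays). In the retinoid pathway 1 of 13 genes was called (7.69%), near the 7.88% of all genes: RBP4, the carrier of retinol, read 9.35, 10.11, 9.78, 9.77 and 10.35 in VFC and 8.77, 8.79, 9.06, 8.89 and 9.49 in M1C. It was higher in VFC in 5 of 5 animals, by 0.87 ± 0.095, although the highest M1C mean exceeded the lowest VFC mean. The receptor RARB (0.35) and the binding protein CRABP1 (0.29) were not called. Of 16 neuropeptide genes 18.75% were called, against 7.88% of all genes. The opioid precursors PDYN (0.77 ± 0.17) and PENK (0.33 ± 0.07) were higher and the granin CHGA lower (-0.30 ± 0.05). PDYN stood at 7.63 ± 0.06 in VFC and 6.86 ± 0.53 in M1C, without overlap, and its 5 differences were 0.62, 0.71, 0.23, 1.70 and 0.56, the widest spread falling to animal 4.

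Energy metabolism genes had small differences, most of them below 0. Of 30 respiratory chain genes 28 had a negative difference (median -0.12), limma called 0 (10 at an unadjusted p under 0.05), and it called 5 lower without the 2 arrays. NDUFA4 read -0.28 and ATP5F1A -0.20 (limma adjusted p = 0.1 and 0.0753). Of 15 glycolysis genes limma called 0 (7 at an unadjusted p under 0.05), and 3 lower without the 2 arrays, among them the lactate transporter SLC16A1 (-0.38 and -0.47). Of 16 ribosomal protein genes limma called 0 with all arrays or without the 2 (2 at an unadjusted p under 0.05, median 0.073), with RPS15 at 0.16. Of 14 heat shock and hypoxia genes HSPB1 (-0.33 ± 0.062) and MT2A (-0.30 ± 0.072) were called lower (14.3%), against 4.16% of all genes. Of 17 immediate early genes, which follow neuronal activity, limma called 0 with all arrays (5 at an unadjusted p under 0.05) and 4 higher without the 2, BDNF among them (0.26 and 0.36). Over all tested probe sets 4.91% were called higher and 4.92% lower without the 2 arrays.

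Of 11 genes linked to speech and language, 2 were called higher, against 3.72% of all genes. They were the guidance receptor ROBO1, also in the axon guidance list, and GNPTAB, a gene linked to stuttering (0.24 ± 0.055). CNTNAP2 read 0.063 (limma adjusted p = 0.537). CMIP read 0.17 on its brightest probe set, which was not called, while its other probe set was called higher. Among 96 probe sets annotated to microRNA genes, 2 were higher and 2 lower (4.17% called, below the 7.88% of all genes); which transcript of such a locus they detect was not given in the sources used here. MIR137, a brain-enriched microRNA that acts on synaptic genes, read 7.37, 7.75, 7.74, 7.39 and 7.64 in VFC of animals 1 to 5 and 6.58, 6.75, 7.09, 6.65 and 6.87 in M1C. Its regions did not overlap, and its differences lay between 0.64 and 0.999 (0.79 ± 0.059, limma adjusted p = 0.00375). MIR628 was higher by 0.50 ± 0.09. MIR219-2, a microRNA locus that promotes oligodendrocyte maturation, was lower, at -0.53 ± 0.11, and so was MIR21, at -0.31 ± 0.073.

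The remaining genes among the 20 with the largest increase have varied roles. RASAL1, a negative regulator of Ras, was the most even of them, with differences from 0.60 to 0.89 and a limma adjusted p of 0.00375. ANKRD6, a regulator of Wnt signalling, differed by 0.81 ± 0.086, MCOLN3, an endosomal ion channel, by 0.88 ± 0.11 and CCN3, a secreted matrix protein, by 0.76 ± 0.097. Among the 20 with the largest decrease, TMEM144 (-1.27 ± 0.19), the hedgehog-binding HHIP (-1.02 ± 0.19), the cytoskeletal SEPTIN4 (-0.999 ± 0.19) and the carboxypeptidase CPM (-0.93 ± 0.17) were in none of the lists. Of these TMEM144 reached -1.60 without the 2 arrays.

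Whether the region difference itself differed between hemispheres was tested by subtracting the right from the left VFC minus M1C difference in each animal. Limma called 0 of 24292 probe sets (0%), while 1179 had an unadjusted p under 0.05 and the smallest adjusted p was 0.287. The named genes with the smallest p were E2F5, a cell cycle factor (0.10 on the left and 0.62 on the right), LUM (0.21 and 0.74), ITGB4 (0.016 and 0.42), CTNNA3 (-0.50 and -0.99), SRPX (-0.018 and 0.36) and KLHL30 (0.16 and -0.24), each with a limma adjusted p of 0.949. WNT10B, H2BC9, BHMT and ISX followed at the same adjusted p. Right arrays alone gave 1270 called probe sets, of which 97.9% had the same sign on the left, against 66.6% of all tested probe sets, with both hemispheres from the same animals; left arrays alone gave 0 calls by limma (smallest adjusted p 0.123, with 3036 at an unadjusted p under 0.05). Both doubted arrays are left arrays. The 159 called genes described here include GLRA1 and GABRQ, for which no test is given above. Of the 159, the left difference was the smaller in size in 144. Over animals 1, 2 and 5, which hold neither array, it was the smaller in 96.

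**Figure D5:**
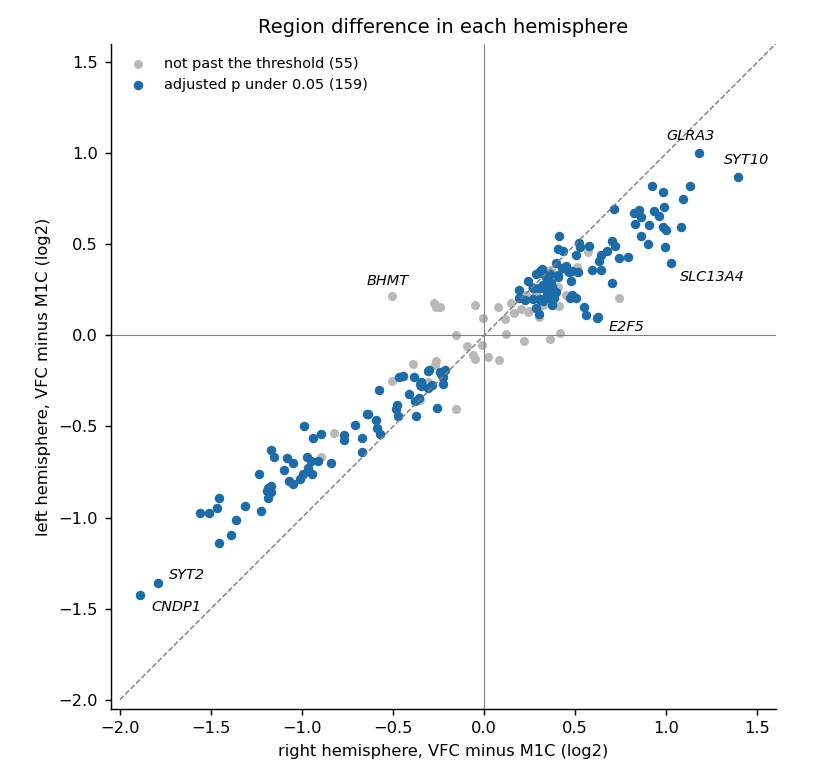
VFC minus M1C difference in the left (y axis) against the right hemisphere (x axis), log2, mean of 5 animals, for the 214 genes examined; blue points passed the limma threshold over both hemispheres and the dashed line marks equal values. The 159 called genes, GLRA1 and GABRQ included, have the same sign in both hemispheres, and 144 of them lie nearer to 0 on the left.

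Superior temporal cortex gives each difference a second reference; VFC minus M1C shares its VFC arrays with VFC minus STC and its M1C arrays with STC minus M1C, so the values are set side by side only. For CNDP1 the 3 differences were -1.66 (VFC minus M1C), -0.71 (VFC minus STC) and -0.94 (STC minus M1C), and for SYT2 they were -1.57, -0.60 and -0.97. In the mean, STC lay between the other regions for both genes. For SYT10 they were 1.13, 0.21 and 0.93, with STC nearer to VFC. For RBP4 they were 0.87, 0.76 and 0.11, for FREM3 0.92, 0.94 and -0.019, and for GABRA5 0.45, 0.44 and 0.011, with STC nearer to M1C. GLRA1 gave -0.91, -0.10 and -0.81, with STC nearer to VFC again. All these values use all arrays. Leaving out the 2 doubted arrays and the STC right arrays of animals 3 and 4 moved some of them. VFC minus STC was then -0.67 for CNDP1 and -0.56 for SYT2, and STC minus M1C was -1.22 and -1.26, with STC nearer to VFC. For FREM3 STC minus M1C was then 0.15.

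Between VFC and STC a single probe set passed in limma (1 of 24292, 0.00412%), while 3183 had an unadjusted p under 0.05. No probe set passed (0) once the 2 doubted arrays were left out. Leaving out animals 1 to 5 in turn gave 72, 0, 0, 16 and 0 calls. On the probe sets that tell the sexes apart, the STC right arrays of animals 3 and 4 also stood apart. That of animal 3, a female, read 11.26 and 7.29, and that of animal 4, a male, 11.21 and 5.00. Once region and hemisphere means were subtracted, the latter correlated best with animal 3 (0.35, against 0.06 with animal 4). M1C left of animal 3 correlated best with animal 4 (0.15, against -0.06 with animal 3). Whether arrays were exchanged was not tested. Without all 4 arrays limma called 81 (0.333%). The single call was FFAR4, a receptor for long-chain fatty acids. It read 7.76, 7.96, 7.88, 8.06 and 7.88 in VFC, 7.25, 7.28, 7.33, 7.41 and 7.29 in STC and 7.38, 7.44, 7.23, 7.52 and 7.43 in M1C of animals 1 to 5. VFC lay above both other regions in every animal, by 0.51 ± 0.053 over M1C (limma adjusted p = 0.00801) and 0.59 over STC (limma adjusted p = 0.017). PRKCD (0.48 over M1C and 0.75 over STC), CNR1 (0.27 and 0.42) and GPR26 (0.27 and 0.49) had the next smallest p among genes higher in VFC than in STC, beside RBP4, and each was called against M1C. In the other direction SEMA3E (-0.75 against STC), STAMBPL1 (-0.52), HTR2C (-0.33), CHN2 (-0.35) and KCNH8 (-0.39) had the smallest p; of these KCNH8 was called against M1C with all arrays (lower, as above), and without the 2 doubted arrays HTR2C was called as well, higher in VFC than in M1C (0.30, limma adjusted p = 0.0253). STC minus M1C gave 221 calls (0.91%), 2483 (10.2%) without the 4 arrays, and 0, 0, 39, 0 and 0 with all arrays when animals 1 to 5 were left out in turn.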

How the data were processed

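RNA of 30 frozen cortex samples of 5 rhesus macaques was hybridised to Affymetrix arrays, 1 array per animal, region and hemisphere. What the authors deposited is a log2 intensity per probe set, made with RMA and oligo, per the submitters' processing notes; versions, genome build and whether other arrays were normalized together are not given in the sources used here. Per the labels, an animal number is shared by its 6 arrays, which pairs the regions; 28 of 30 arrays correlated best with their own animal. Symbols came from the platform annotation: 16020 probe sets had 1 symbol, 490 several and 23979 none listed. For 14947 of the single symbols a current entry was available, and 0 had to be updated. No sequences or coordinates are given.

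Probe sets whose mean over 30 arrays exceeded the 40th percentile were tested with limma 3.58.1 in R 4.3.3: an intercept on the 5 within-animal differences, eBayes with default settings (4 residual degrees of freedom before moderation), two-sided, Benjamini-Hochberg over 24292 probe sets, threshold 0.05. Each of these p-values, and each limma adjusted p in the text, measures spread between 5 animals. The fit was tested on simulated pairs with known changes. VFC minus STC, STC minus M1C and the hemisphere interaction were fitted likewise.

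The comparison, the 36 gene lists and the settings were chosen with earlier results of these data known, and no list was tested as a set. Some genes are in more than 1 list, so the counts of different lists are not separate. Named genes are the brightest probe set of a gene, systematic symbols (LOC and the like) left out: the 20 higher and 20 lower with the largest difference among those called with 1 direction in 5 of 5 animals, called list members and up to 4 others per list by size, the 5 smallest p per direction against STC and between hemispheres, up to 6 called microRNA genes, and defining markers. Of the tested probe sets, 2037 repeat an earlier one. Alternatives covered arrays, animals, hemispheres, pairing, filter, scaling, trend and weights; 1, without 4 arrays, was added after seeing the data.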

Additional observations from a re-analysis of the deposited data

Results flagged for a closer look

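The difference of GABRA5, a GABA receptor subunit, stood apart in 1 animal. VFC minus M1C was 0.789 in animal 5 and between 0.283 and 0.428 in the other 4 animals, all in the same direction. The gap between animal 5 and its nearest neighbour took 0.715 of the whole range, above Dixon's critical value of 0.71 for 5 values. Among the 214 genes examined this was the 1 case. For independent genes chance alone would flag about 1 in 20, so a single flag can arise by chance. The 214 genes share the same 5 animals and many were picked for their calls. Their count of flags therefore cannot be set against that rate. Animal 5 holds neither of the 2 doubted arrays.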

How the results depend on the processing

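Directions of the 159 called genes described above did not reverse under any of the alternatives. These covered arrays, animals, hemispheres, pairing, filter, scaling, trend and weights. For pairing, filter and trend this was fixed in advance, because these settings leave the difference of a gene unchanged. With the intensity trend or with no replicate block, the median over all tested probe sets stayed at 0.00276. Leaving out 1 animal is likewise no test of direction for genes with the same sign in 5 of 5 animals. Directions were free to change when arrays or a hemisphere were left out, and under scaling or weights. The calls of these genes and the counts were less stable. Without the 2 doubted arrays 157 of 159 stayed called (the 2 lost were NECTIN3 and FLT1), against 50, 82, 145, 32 and 75 when animals 1 to 5 were left out in turn.

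Leaving out 1 animal at a time gave 144 to 1477 called probe sets for VFC minus M1C, 66 to 795 higher and 78 to 682 lower, 1 to 26 lower oligodendrocyte genes and 8 to 15 lower large-axon genes; VFC minus STC gave 0 to 72 and STC minus M1C 0 to 39. Left arrays alone gave 0 in each of these counts and right arrays 1270, 0 and 19 for the 3 comparisons in this order. A spread tied to intensity gave 0 throughout. The cause was not tested. Testing all 40489 probe sets, which brings in dim ones, gave 202 (92 higher and 110 lower, 3 oligodendrocyte and 9 large-axon genes), 0 and 0, and a filter at the 60th percentile gave 31 for VFC minus STC and 585 for STC minus M1C.

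The animal number pairs the regions of an animal. A fit with no replicate block, which drops that pairing, gave 385 for VFC minus M1C (204 higher, 181 lower, 7 oligodendrocyte genes), 1 for VFC minus STC and 0 for STC minus M1C. Paired fits on more samples gave more: all 3 regions together 2554 (1261 and 1293), 52 and 574; single arrays, which count 2 hemispheres of an animal as separate samples, 3085 (1526 and 1559), 346 and 1265, or 2837 (1426 and 1411), 265 and 1117 with animal as a random block. Array weights gave 115 for STC minus M1C. Without the 2 doubted arrays the counts were 2386 (1192 higher), 0 and 1035, and without 4, chosen after seeing the data, 81 for VFC minus STC and 2483 for STC minus M1C. Centring arrays on their medians moved the share of higher calls in STC minus M1C from 54.3% to 43.0%. The hemisphere comparison gave 0 calls in every setting.

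Some of the genes that did not pass changed sign. With left arrays alone KLHL30 read 0.158, H2BC9 0.18, BHMT 0.219, ISX 0.154, SRPX -0.0177, RORB -0.031 and BCL11B 0.000928. With right arrays alone CHN2 read 0.0213, CLDN5 -0.0526, TTR -0.00835 and DRD1 0.0817. When 1 animal was left out, KLHL30 ranged from -0.115 to 0.0119, RORB from -0.0317 to 0.202, TTR from -0.0377 to 0.104 and DRD1 from -0.1 to 0.0433; without the 2 doubted arrays TTR read -0.021. Of the 55 genes described as not called, 29 passed without those 2 arrays. Signal over background limits SYT10, GLRA1, GABRQ, KCNH8 and other dim genes, whose lower region lay around the filter level of 6.04.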
